A study of Mus musculus with 66 samples.

Results

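C2C12 is a mouse myoblast line that proliferates in rich medium and, once confluent in low serum, leaves the cell cycle and fuses into myotubes. The mitosis and spindle checkpoint genes were followed through that transition by mRNA-Seq. The set holds 41 genes, chosen by name for their roles in cell division, of 22489 genes in the table, and all 41 were found. The libraries came from unmodified C2C12 cells (WT) and from 9 Tet-On C2C12 lines, each with a Dox-inducible gene for a histone H3 that carries GFP at its N terminus. The tagged proteins were H3mm7, H3mm11, H3mm12, H3mm13, H3mm16 and H3.3, which belong to the H3.3 class of sequences, and H3t, H3.2 and H3.1, which belong to the H3.1/H3.2 class. Each line gave 1 growth library, from cells in 20% fetal bovine serum collected before confluence, and 1 differentiated library, from cells kept for 48 h in 2% horse serum. The transgenic lines were obtained with transposon vectors, selected with drug and sorted for GFP, and the methods call them stable clones without saying whether a line descends from a single cell.

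Values are FPKM (fragments scaled to transcript length and to the mapped fragments of a library), so that levels of different genes can be set side by side. Read numbers behind them are unknown, and between 13858 and 16865 genes had a value above 0 in a library. Myogenic markers were present in all 20 libraries, with a summed level of 10 markers of 294 to 877 FPKM in growth and 3237 to 15142 FPKM after differentiation. Markers of macrophages, endothelium, adipocytes and osteoblasts summed to at most 3.92, 7.63, 0.126 and 2.37 FPKM, respectively. The macrophage gene Emr1 was listed at 0 in 20 libraries, but the macrophage gene Cd68 was above 0 in all 20, at up to 3.90 FPKM. The endothelial gene Cdh5 was also above 0 in all 20, at up to 7.53 FPKM. A single line in 1 state is a single library, so lines are tested against each other only as groups, and single lines are described without a test. The p-values below set a difference of group means against the spread between lines within the groups. The main fits treat the growth and differentiated libraries of a line as independent.

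In a dividing cell, cyclin B with Cdk1, Plk1 and the Aurora kinases start mitosis, condensin and topoisomerase II compact the chromosomes, and kinesins and microtubule proteins build the spindle. Kinetochores that lack microtubules hold the spindle assembly checkpoint active, which keeps Cdc20 from switching on the anaphase-promoting complex (APC/C). When all chromosomes are attached, the APC/C marks securin and cyclin B for destruction, separase cuts cohesin, and the central spindle and the contractile ring divide the cell. Transcripts of most of these proteins accumulate in G2 and mitosis, and cells that have left the cycle contain little of them.

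Every one of the 41 genes was lower in differentiated cells than in growth, by a median of 3.68 on the log2(FPKM + 1) scale, where the median of all genes tested was 0.04. In growth the gene medians over 10 lines ran from 14.9 FPKM for Cenpf to 273 FPKM for Ube2c, and after differentiation from 0.418 FPKM for Espl1 to 40.6 FPKM for Bub3. A gene was called when limma gave an adjusted p below 0.05 (Benjamini-Hochberg, over the 10954 genes that averaged 1 FPKM or more) and the difference was at least 1 on the log2 scale. By this rule 41 of 41 genes fell and 0 rose, where 8.41% of all genes tested fell (921) and 8.87% rose (972). The growth and differentiated ranges did not overlap in 40 of 41 genes, the exception being Racgap1, and 409 of 410 comparisons within a line went down. Both counts are for the 41 genes alone and were not set beside counts over all genes tested. Falls are given on the log2(FPKM + 1) scale, on which the pseudocount of 1 FPKM shortens the fall of genes that end near or below that level, so an order of falls holds for this scale, and the ratio of medians is given where it orders the genes otherwise. With RNA from whole cultures, fewer dividing cells and less RNA in each cell cannot be told apart.

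**Figure D1:**
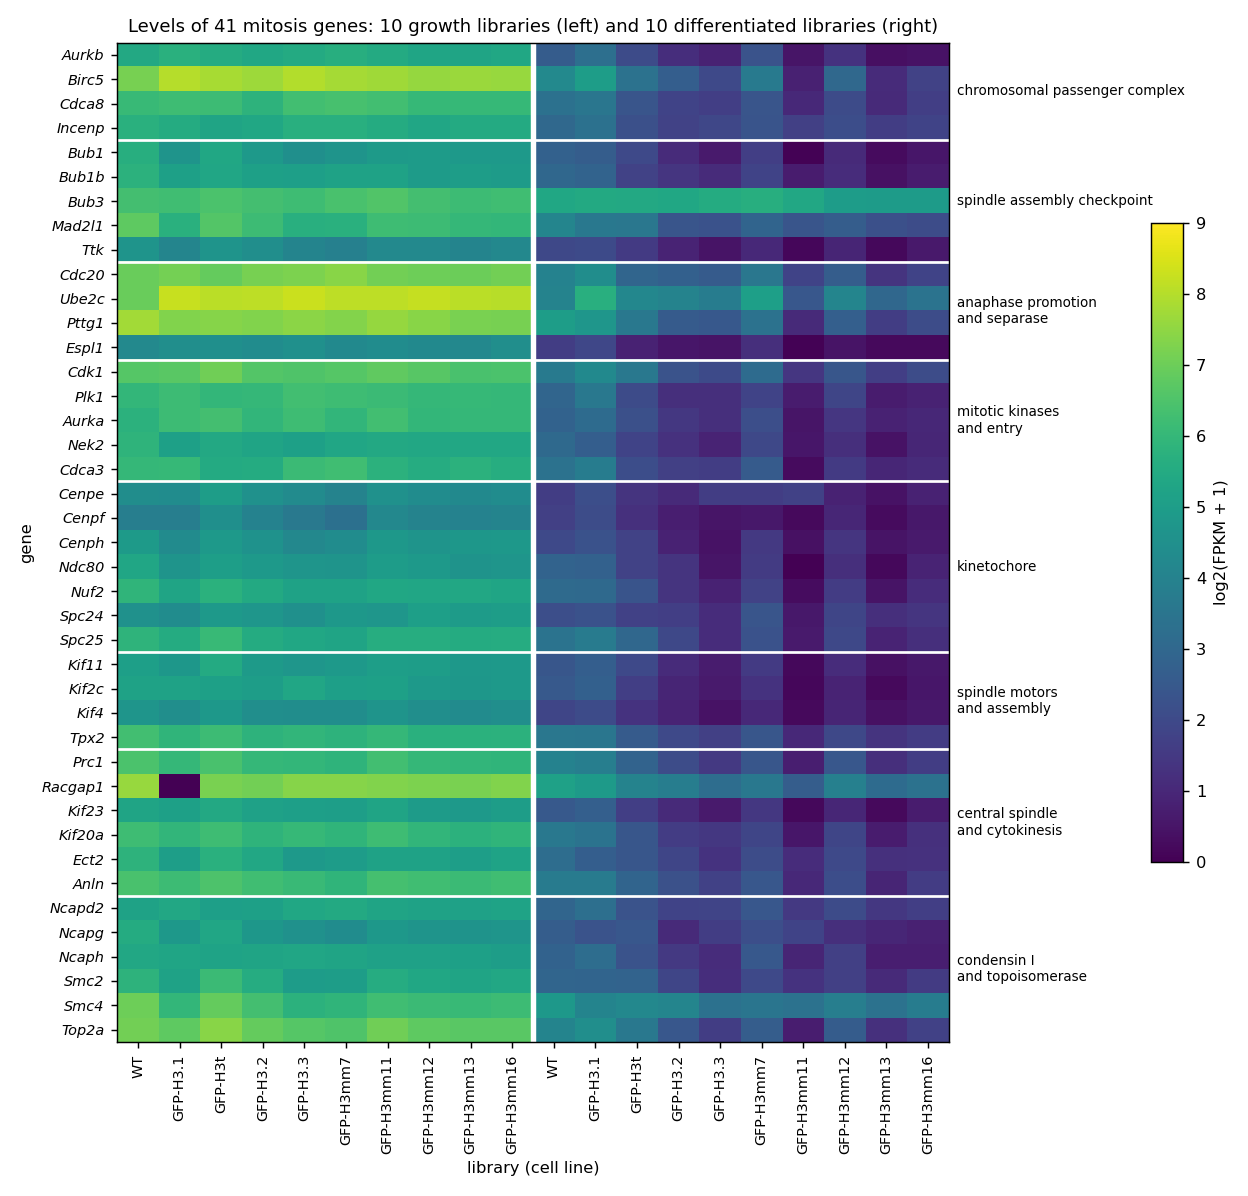
Levels of the 41 mitosis genes (rows, grouped by role) in 20 libraries (columns), as log2(FPKM + 1) by colour, with the 10 growth libraries on the left and the 10 differentiated libraries on the right. Growth columns look alike except for Racgap1 in GFP-H3.1, listed at 0. Differentiated columns are darker and differ from line to line, and Bub3 stays bright in all of them.

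The genes lie apart, on 16 chromosomes of mm9, with at most 7 on 1 chromosome. Many of them share short motifs near the start site. Cell cycle genes expressed in G2 and mitosis are known for a CHR element, TTTGAA, bound by the MuvB complex, and for CCAAT boxes, bound by NF-Y, close to the start. RefSeq promoter windows (GRCm38.p6, 250 bases before the start site to 50 after it) were listed for 35 of the 41 genes, and not for Aurkb, Incenp, Spc24, Tpx2, Kif20a and Smc4. TTTGAA, searched on both strands, occurred in 26 of 35 windows (74.3%) and in 18.1% of the windows of 27025 genes. Counting only the stretch from 100 bases before the start to the end of the window, these shares were 68.6% and 8.08%. CCAAT, on both strands, occurred in 27 of 35 windows (77.1%) and in 37.9% of all windows. Both motifs together occurred in 23 of 35 windows (65.7%) and in 7.12% of all windows. The CHR variant TTCGAA, which reads the same on both strands, was in 3 windows (8.57%, against 1.57% of all), and the E2F sites TTCCCGCC and TTTGGCGC were in 1 window each (2.86%, against 2.24% and 0.537% of all). Birc5, Mad2l1, Pttg1, Nuf2 and Ncaph held none of the 5 motifs, as did 48.9% of all windows. These are matches of letters, with no measurement of binding.

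The windows of 5 genes are shown. Birc5 and Bub3 are the genes with the largest and the smallest fall. The other 3 are Cdc20 and Ube2c of the anaphase switch and Plk1 of the mitotic kinases. These 3 all hold both TTTGAA and CCAAT, as 23 of 35 windows did, whereas Pttg1 of the anaphase switch held no motif. Each window runs 5′ to 3′ on the strand of its gene, in lower case, with every TTTGAA and CCAAT in capitals, as TTCAAA and ATTGG where the match is on the other strand. Positions are those of an exact match in mm9.
Birc5 (chr11:117710301-117710600, plus strand, no match): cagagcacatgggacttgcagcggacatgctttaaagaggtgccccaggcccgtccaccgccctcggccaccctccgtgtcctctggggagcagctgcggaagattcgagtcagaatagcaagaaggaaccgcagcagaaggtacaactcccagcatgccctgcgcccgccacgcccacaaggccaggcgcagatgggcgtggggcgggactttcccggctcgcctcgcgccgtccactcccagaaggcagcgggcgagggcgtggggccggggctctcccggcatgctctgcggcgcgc
Bub3 (chr7:138703634-138703933, plus strand): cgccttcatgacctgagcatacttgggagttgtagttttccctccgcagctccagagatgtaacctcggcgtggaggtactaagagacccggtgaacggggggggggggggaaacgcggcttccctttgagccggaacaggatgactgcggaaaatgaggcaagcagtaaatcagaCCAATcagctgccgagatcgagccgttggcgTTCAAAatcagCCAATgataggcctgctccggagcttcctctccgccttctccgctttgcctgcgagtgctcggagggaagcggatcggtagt
Cdc20 (chr4:118109899-118110198, minus strand): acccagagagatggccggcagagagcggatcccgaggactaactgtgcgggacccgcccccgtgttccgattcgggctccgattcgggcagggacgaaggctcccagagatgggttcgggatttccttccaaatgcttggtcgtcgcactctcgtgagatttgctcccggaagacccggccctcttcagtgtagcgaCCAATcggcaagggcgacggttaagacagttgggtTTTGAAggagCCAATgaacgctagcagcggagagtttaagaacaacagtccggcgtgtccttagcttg
Ube2c (chr2:164595179-164595478, plus strand): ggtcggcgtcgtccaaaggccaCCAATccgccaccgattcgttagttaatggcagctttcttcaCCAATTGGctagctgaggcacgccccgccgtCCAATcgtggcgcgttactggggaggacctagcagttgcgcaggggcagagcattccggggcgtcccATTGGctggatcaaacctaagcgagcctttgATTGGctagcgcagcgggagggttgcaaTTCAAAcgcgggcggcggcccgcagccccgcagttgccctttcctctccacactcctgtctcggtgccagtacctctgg
Plk1 (chr7:129302699-129302998, plus strand): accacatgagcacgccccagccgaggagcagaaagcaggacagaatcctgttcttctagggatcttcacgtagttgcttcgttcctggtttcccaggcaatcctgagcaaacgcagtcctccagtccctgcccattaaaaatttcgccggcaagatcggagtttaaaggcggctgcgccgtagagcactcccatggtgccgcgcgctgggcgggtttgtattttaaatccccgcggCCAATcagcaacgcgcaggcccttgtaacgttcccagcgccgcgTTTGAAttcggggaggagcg
In Cdc20, TTTGAA begins 18 bases before the start site between CCAAT boxes that begin 53 and 8 bases before it. In Ube2c it lies 29 bases before the start on the other strand, with the nearest CCAAT 57 bases before the start. In Plk1, TTTGAA begins at base 31 of the transcript and CCAAT 14 bases before the start. Bub3, which fell least, also holds TTTGAA, 43 bases before the start, with CCAAT boxes at 74 and 32 bases before it, and Birc5, which fell most, holds neither motif in this window.

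The chromosomal passenger complex, which corrects wrong attachments at centromeres and then guides cytokinesis, was lower in all 4 of its genes, by a median of 4.00 on the log2 scale. Birc5 (survivin, the small subunit that brings the complex to centromeres, mm9 chr11:117710565-117717069) ranged from 140 to 255 FPKM with a median of 206 in growth and from 0.768 to 31.0 FPKM with a median of 6.38 after differentiation. These ranges lie far apart, and Birc5 had the largest fall of the 41 genes, by 4.92 (SE 0.41, adjusted p = 1.59e-09 by limma). Incenp, the scaffold of the complex, went from 37.6 to 51.8 FPKM with a median of 44.8 to a range of 2.11 to 9.35 FPKM with a median of 3.05. Its fall of 3.32 (SE 0.18, adjusted p = 2.57e-12 by limma) was the smallest of the 4 genes, and its median after differentiation was 6.79% of that in growth. Aurkb, the kinase, fell by 3.96 and Cdca8 (borealin) by 4.04.

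All 5 genes of the spindle assembly checkpoint fell, 4 of them by 3.28 to 3.68 and Bub3 by far less. Bub1b (BubR1, part of the inhibitor of Cdc20) was at 29.4 to 54.2 FPKM, median 33.5, in growth and at 0.335 to 7.12 FPKM, median 1.43, after differentiation. That was a fall of 3.68 (SE 0.27, adjusted p = 2.63e-10 by limma), the largest of the group on this scale, while the ratio of medians was larger for Bub1 (24.5) than for Bub1b (23.4). The kinases Bub1 and Ttk (Mps1) fell by 3.63 and 3.28, and Mad2l1 (Mad2), which binds Cdc20, fell by 3.28. Bub3, the WD-repeat protein that docks Bub1 and BubR1 at kinetochores (mm9 chr7:138703905-138715412), was at 71.6 to 92.4 FPKM, median 78.1, in growth and at 29.9 to 49.3 FPKM, median 40.6, after differentiation. The groups did not overlap and every line went down, but 39.1% to 62.1% of the growth level was left. Its fall of 1.02 (SE 0.10, adjusted p = 8.24e-09 by limma) lay just past the minimum of 1 and dropped below it under 4 of 21 alternatives, with a range of 0.95 to 1.06.

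The switch into anaphase fell by a median of 4.17, the largest of the 8 roles on the log2(FPKM + 1) scale. Pttg1 (securin, the inhibitor of separase) was at 142 to 212 FPKM, median 162, in growth and at 1.09 to 31.0 FPKM, median 5.31, after differentiation, a fall of 4.45 (SE 0.38, adjusted p = 2.36e-09 by limma). Espl1 (separase) was low already in growth, at 17.3 to 22.1 FPKM with a median of 19.6, and went to 0.0376 to 2.77 FPKM with a median of 0.418. Its fall of 3.60 (SE 0.19, adjusted p = 2.15e-12 by limma) was the smallest of the group on the log2(FPKM + 1) scale, and the ratio of its medians, 46.8, was the largest of the 41 genes. Cdc20, the activator of the APC/C, fell by 4.30. Ube2c, the ubiquitin-conjugating enzyme that works with the APC/C, fell by 4.04 from the highest growth level of the set.

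The kinases that drive entry into mitosis fell by 3.89 to 4.38. Plk1 was at 61.4 to 76.2 FPKM, median 63.4, in growth and at 0.598 to 11 FPKM, median 1.92, after differentiation, a fall of 4.38 (SE 0.29, adjusted p = 4.77e-11 by limma). Nek2, which separates centrosomes, went from 33.4 to 56.9 FPKM, median 40.8, to 0.360 to 7.5 FPKM, median 1.37, a fall of 3.89 (SE 0.27, adjusted p = 8.34e-11 by limma). Plk1 had the largest and Nek2 the smallest fall of the 5 genes on this scale, whereas by the ratio of medians Aurka came first (36.3, Plk1 33.1) and Cdk1 last (23.9, Nek2 29.7). Between Plk1 and Nek2 on the log2 scale were Aurka, the centrosomal Aurora kinase, at 4.37, Cdk1, the kinase partner of cyclin B, at 3.99, and Cdca3, a trigger of mitotic entry, at 3.91.

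In the kinetochore, 7 of 7 genes fell, by 3.05 to 3.81. Nuf2, a subunit of the Ndc80 complex that binds microtubules, was at 35.1 to 57.8 FPKM, median 39.8, in growth and at 0.241 to 7.56 FPKM, median 1.78, after differentiation, a fall of 3.81 (SE 0.30, adjusted p = 6.81e-10 by limma). Cenpf, a large protein of the outer kinetochore, was at 9.06 to 21.4 FPKM, median 14.9, and went to 0.174 to 3.26 FPKM, median 0.594. This was the lowest growth level of the set, and the fall of 3.05 (SE 0.21, adjusted p = 5.82e-11 by limma) was the smallest of the group only on the log2(FPKM + 1) scale. By the ratio of medians Cenpf changed most of the 7 genes (25.1) and Cenpe least (10.7), and with a pseudocount of 0.1 FPKM Cenpf fell by 4.13, Cenpe by 3.75 and Spc24 by 3.62. The other subunits of the Ndc80 complex, Spc25, Ndc80 and Spc24, fell by 3.58, 3.53 and 3.11, Cenph of the inner kinetochore by 3.45 and the kinesin Cenpe by 3.09. Ndc80 was listed at 0 in differentiated GFP-H3mm11 cells.

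The 4 genes of spindle motors and assembly fell by 3.53 to 3.88 on the log2(FPKM + 1) scale. Kif2c (MCAK, a kinesin that takes microtubules apart) was at 26.5 to 39.5 FPKM, median 33.2, in growth and at 0.120 to 5.75 FPKM, median 0.885, after differentiation, a fall of 3.88 (SE 0.27, adjusted p = 9.60e-11 by limma). Kif4, a chromosome-bound kinesin, was at 19.3 to 26.9 FPKM, median 20.8, and went to 0.160 to 3.2 FPKM, median 0.904, a fall of 3.53 (SE 0.19, adjusted p = 2.38e-12 by limma). Tpx2, which activates Aurora A on the spindle, fell by 3.74, and Kif11 (Eg5), which pushes the spindle poles apart, by 3.68.

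Of the genes of the central spindle and cytokinesis, Kif20a (Mklp2), which carries the passenger complex to the midzone, fell most on the log2(FPKM + 1) scale, and Kif23 by the ratio of medians (32.7, Kif20a 25.4). Kif20a was at 53.4 to 73.2 FPKM, median 59.9, in growth and at 0.468 to 11.2 FPKM, median 2.36, after differentiation, a fall of 4.11 (SE 0.31, adjusted p = 3.18e-10 by limma). Racgap1, which forms centralspindlin with Kif23, was at 134 to 193 FPKM in 9 growth libraries but listed at 0 in growing GFP-H3.1 cells, and at 5.30 to 34.6 FPKM, median 12.1, after differentiation. Differentiated GFP-H3.1 cells had 28.9 FPKM, so that this line alone reads as a rise, and a 0 between such values can be a failed estimate. The fall of Racgap1 was 2.78 (SE 0.72, adjusted p = 0.00244 by limma) with the 0 and 3.51 (adjusted p = 1.75e-10) with it left out. Anln (anillin of the contractile ring) fell by 3.98, Kif23 by 3.90, Prc1, which bundles the midzone microtubules, by 3.79, and Ect2, the activator of RhoA, by 3.32.

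Condensin I and topoisomerase II showed the widest range of the roles after the checkpoint. Top2a, which untangles sister chromatids, was at 90.8 to 167 FPKM, median 108, in growth and at 0.642 to 20.8 FPKM, median 4.81, after differentiation, a fall of 4.33 (SE 0.37, adjusted p = 2.63e-09 by limma). Smc4, a core ATPase that condensin I shares with condensin II, was at 54.0 to 127 FPKM, median 70.0, and went to 9.2 to 26.9 FPKM, median 13.1. It kept more of its growth level than any gene but Bub3, and fell by 2.40 (SE 0.18, adjusted p = 4.20e-10 by limma). Its partner Smc2 fell by 3.49, and the subunits found in condensin I alone, Ncaph, Ncapd2 and Ncapg, by 3.45, 3.11 and 3.1. Bub3 and Smc4 were the 2 genes that kept at least 10% of their growth level in every line.

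**Figure D2:**
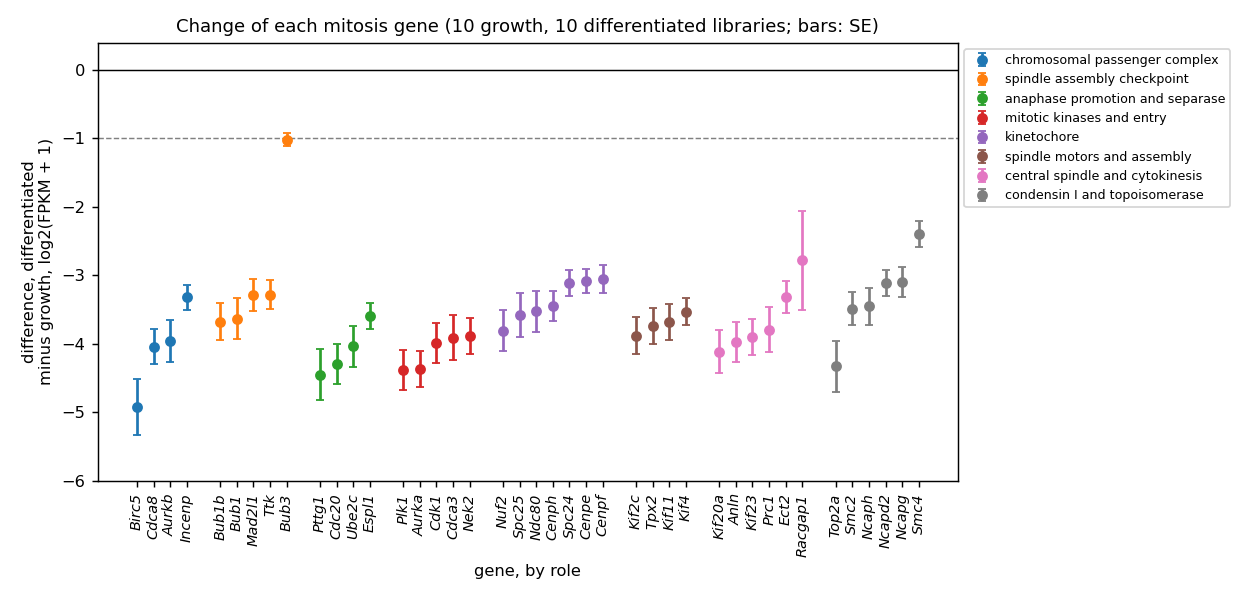
Difference between differentiated and growing cells for each of the 41 genes, on the log2(FPKM + 1) scale, over 10 growth and 10 differentiated libraries (points, limma estimate; bars, SE; colours, roles; dashed line, the minimum of 1 for a call). The points lie between -4.92 for Birc5 and -1.02 for Bub3, and the long bar of Racgap1 goes with a value of 0 in 1 growth library.

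Of 118 other genes of mitosis, in 8 lists, 77 were called lower and 0 higher, with a median difference of -1.77 (8.41% of all genes tested were called lower). Of the regulators of mitotic entry and exit 15 of 16 were called lower, from Ccnb1 (cyclin B1), which fell by 4.38, to Pkmyt1, an inhibitory kinase of Cdk1, which fell by 1.16. Spindle motors and microtubule proteins were called lower in 16 of 18 genes and kinetochore and centromere proteins in 26 of 30, where Cenpa, the centromeric H3 variant, fell by 4.19 and Cenpt by 1.10. Of the centrosome genes 6 of 10 were called lower, from Plk4 (by 2.58), which starts centriole duplication, to Cenpj (by 1.06). The 4 not called, with differences of -0.99 to -0.59, passed the adjusted p but not the minimum of 1. Of the 3 genes particular to condensin II, Ncapg2 fell by 2.70, Ncapd3 by 1.51, and Ncaph2, with a difference of -0.57, was not called.

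Of 14 genes of the APC/C core with Cdh1, the proteolytic machine that the checkpoint restrains, 2 were called lower (8.41% of all genes tested), Fzr1 (Cdh1, the activator of the APC/C in late mitosis and G1) by 1.10 and Cdc23 by 1.01, and the list had a median of -0.16. Ube2s, the enzyme that extends ubiquitin chains on substrates of the APC/C, was lower in 10 of 10 lines, with medians of 340 FPKM in growth and 120 FPKM after differentiation, but its difference of -1.46 had an SE of 0.71 (adjusted p = 0.0844 by limma) and was not called. Its WT libraries held only 6.24 and 3.06 FPKM, and without WT the difference was -1.52 (SE 0.10, adjusted p = 1.96e-10 by limma), past both thresholds. Of cohesin, the ring and loader subunits were not called, with differences from -0.88 for Rad21 to 0.44 for Mau2. Rad21, Smc1a (-0.83) and Smc3 (-0.82) were nevertheless lower in 10 of 10 lines. These 3 genes, and Mau2 in the other direction, passed the adjusted p by limma but not the minimum of 1. The 4 genes of 15 called lower were those that act at replication or protect cohesion in mitosis: Cdca5 (sororin) by 3.2, Sgol1 (shugoshin) by 3.01, Sgol2 by 2.99 and the acetyltransferase Esco2 by 2.88. In the list of the MuvB complex and its partners 6 of 12 were called lower, led by Mybl2 (B-Myb, by 3.72) and Foxm1 (by 3.51), the partners of MuvB at genes of G2 and mitosis. Lin54, the subunit that touches the CHR element, fell least of the 6, by 1.14. Rbl2 (p130), which joins MuvB in resting cells, had a difference of 0.63 (adjusted p = 7.63e-05 by limma) and was lower in 0 of 10 lines. It was not called because it missed the minimum of 1. In the list of muscle differentiation 10 of 10 genes rose, by 1.40 for Des to 8.55 for Actc1 (8.87% of all genes were called higher).

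**Figure D3:**
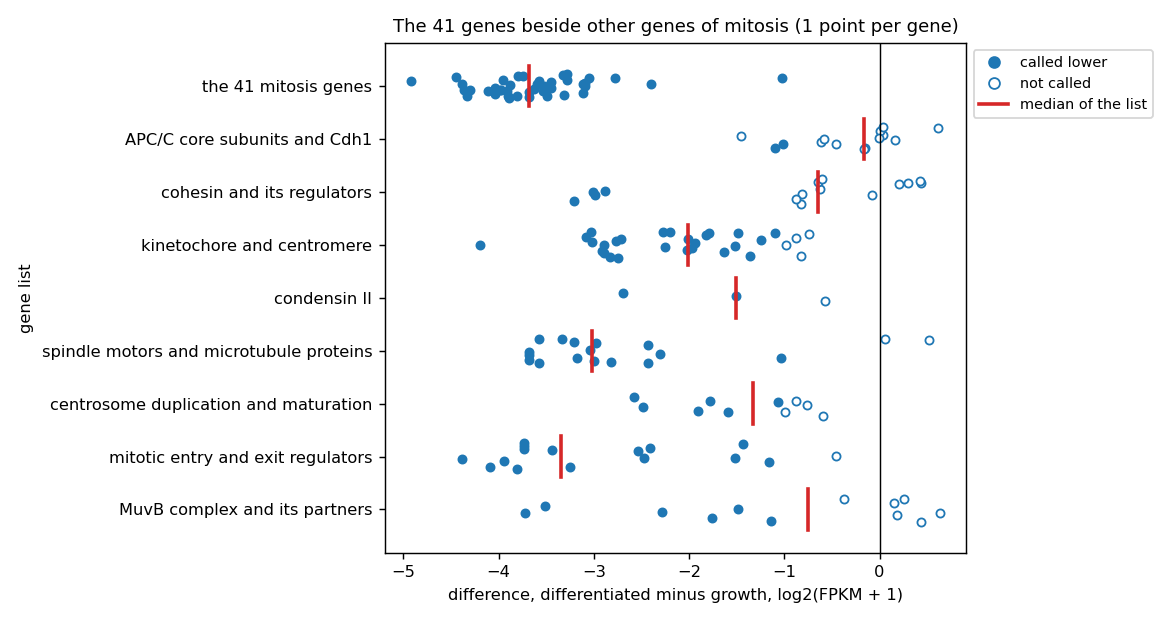
Differences between differentiated and growing cells on the log2(FPKM + 1) scale (x axis) for the 41 genes (top) and for the genes of 8 other lists of mitosis, 1 point per gene, filled where called lower, with the median of each list as a bar. The medians run from -3.68 for the 41 genes to -0.16 for the APC/C core, and in the lists of cohesin and MuvB the called genes stand apart from the rest.

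How much remained differed between the lines. GFP-H3.1 cells kept a median of 18.1% of the growth level over the set and WT cells 13.2%, followed by GFP-H3mm7 (7.61%), GFP-H3t (7.38%), GFP-H3mm12 (4.87%), GFP-H3.2 (4.46%), GFP-H3.3 (3.0%), GFP-H3mm16 (2.87%), GFP-H3mm13 (1.46%) and GFP-H3mm11 (1.20%). The median over all genes tested was 98.7% to 105% in the same lines. Over 10% was left for all 41 genes in WT and for all 40 genes with a growth value in GFP-H3.1, but for only 2 or 3 genes in GFP-H3.2, GFP-H3.3, GFP-H3mm11, GFP-H3mm12, GFP-H3mm13 and GFP-H3mm16. In GFP-H3mm11, GFP-H3mm13 and GFP-H3mm16, 24, 23 and 18 of the 41 genes were below 1 FPKM after differentiation. Each of these values comes from 1 library per line and state, so a difference between 2 neighbours in this order has no replicate behind it.

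Birc5 shows in a single gene how far the levels of the lines lay apart. After differentiation it was at 31.0 FPKM in GFP-H3.1, 17.8 FPKM in WT and 12.1 FPKM in GFP-H3mm7, and at 0.768 FPKM in GFP-H3mm11, 1.14 FPKM in GFP-H3mm13 and 2.40 FPKM in GFP-H3mm16. Its growth level ran from 140 FPKM in WT to 255 FPKM in GFP-H3.1, so that the lines differed 40.4-fold after differentiation and 1.82-fold in growth. Bub3 differed little in either state, with highest over lowest of 1.29 in growth and 1.65 after differentiation.

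The same held for the set. The SD over 10 lines had a median over the 41 genes of 0.22 (log2) in growth and 0.87 after differentiation, where all genes tested had 0.24 and 0.34. It was larger after differentiation in 40 of 41 genes (77.1% of all genes tested), the exception being Racgap1 with its value of 0. The genes also went along with each other: the median r over 820 pairs was 0.29 across the 10 growth libraries and 0.94 across the 10 differentiated libraries, as a description, since all pairs share the same 10 libraries and their scaling. After differentiation GFP-H3.1 had the highest level in 24 genes, WT in 15 and GFP-H3mm7 in 2, and the lowest level was in GFP-H3mm11 in 26 genes, GFP-H3mm13 in 11, GFP-H3mm16 in 3 and GFP-H3.3 in 1. The mean level of the 41 genes did not go along with that of the muscle list over the 10 differentiated libraries (r = -0.08, rho = -0.02, with no test). WT and GFP-H3.1, which had the highest mean levels of the 41 genes, 3.19 and 3.34 as log2(FPKM + 1), had muscle means of 10.7 and 8.68.

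**Figure D4:**
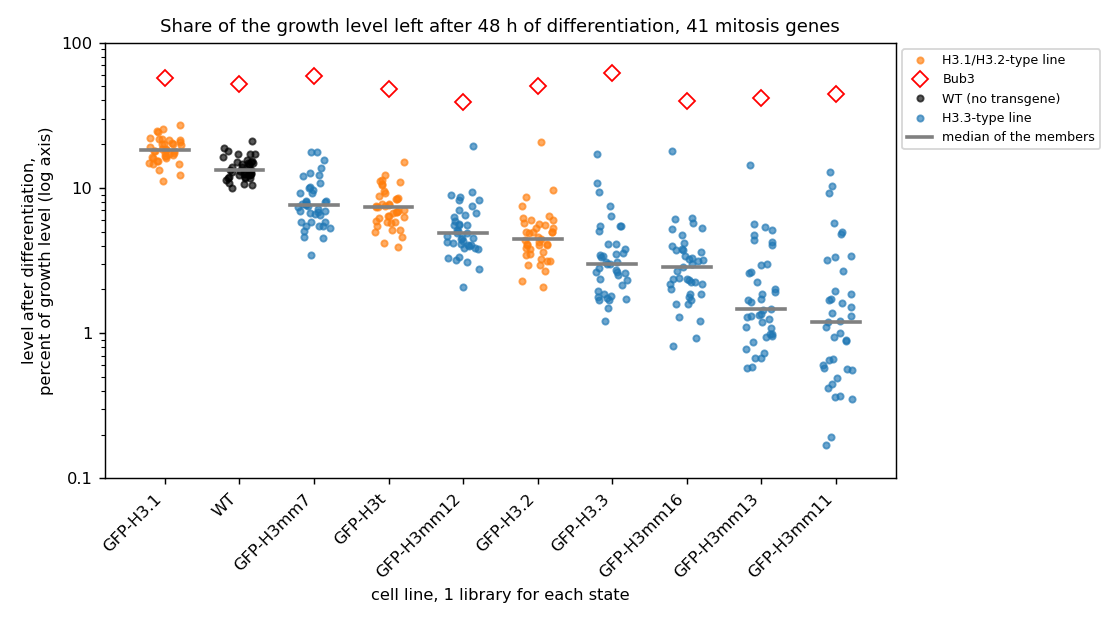
Level after differentiation as percent of the growth level (log axis) for the 41 genes in each line, lines ordered by their median (grey bars), 1 point per gene and 1 library for each state. Medians run from 18.1% in GFP-H3.1 to 1.20% in GFP-H3mm11, and Bub3 (open diamonds) stays at 39.1% to 62.1%. Racgap1 in GFP-H3.1 and Ndc80 in GFP-H3mm11 have no point, because a value of theirs is 0.

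The roles lay closer to each other in some lines than in others. The highest median share left was 1.28 times the lowest in WT and 1.38 times in GFP-H3.1, but 3.27 times in GFP-H3mm13 and 7.14 times in GFP-H3mm11. The last 2 ratios rest on low values in single libraries of unknown depth. After differentiation the median level of the 41 genes was 0.895 FPKM in GFP-H3mm13 and 0.642 FPKM in GFP-H3mm11. In GFP-H3mm11 the median share left ran from 0.558% for spindle motors and assembly and 0.878% for mitotic kinases to 3.99% for condensin I and topoisomerase. In GFP-H3.1 these roles had 17.1%, 16% and 20.2%, and in WT 13.1%, 12.2% and 13.4%. The second highest share after Bub3 was that of Smc4 in 8 of 10 lines, with 12.9% in GFP-H3mm11 to 21.1% in WT among them, and was that of Spc25 in GFP-H3.1 (27.1%) and of Ncapg in GFP-H3mm7 (17.8%).

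In growth, the WT library lay outside the range of the tagged lines in many of the genes. It was above all 9 tagged lines in 18 of the 41 genes, below all in 3 and among them in 20. Mad2l1 was at 108 FPKM in WT and at 50.1 to 94.9 FPKM in the tagged lines, and Smc4 at 127 FPKM in WT and at 54.0 to 116 FPKM in them. The 3 genes below all tagged lines were Ube2c, at 121 FPKM against 259 to 313 FPKM, Birc5, at 140 FPKM against 190 to 255 FPKM, and Aurka, at 54.1 FPKM against 59.4 to 78.2 FPKM. After differentiation WT was above all tagged lines in 15 genes and among them in 26. These counts are for the 41 genes alone and were not set beside counts over all genes tested. They therefore do not show whether WT stood apart more in the mitosis genes than in other genes. WT is 1 library in each state, and no test was made.

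Lines were then compared by the class of the tagged protein, as 6 lines of H3.3 type and 3 lines of H3.1/H3.2 type. In growth 0 of 41 genes were called (0.21% of all genes tested; 23 of 10931), and 1 of the 41 had an unadjusted p below 0.05 by limma. That gene was Racgap1, whose difference of 2.52 includes the 0 in growing GFP-H3.1 cells. With the growth libraries fitted alone 0 of 41 were called as well (0.54% of all genes tested), and 2 had an unadjusted p below 0.05 by limma. The other 40 differences lay between -0.36 and 0.19.

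After differentiation the mean of the H3.3-type lines was the lower in 41 of 41 genes. The median difference was -1.06, where that of all genes tested was 0.0049. Of the 41 genes 9 were called, against 0.768% of all genes tested (84 of 10931), and 36 of the 41 had an unadjusted p below 0.05 by limma, as did 20.1% of all genes. These values rest on a spread estimated over both states together, and the lines differed more from each other after differentiation than in growth. With the differentiated libraries fitted alone, which was added after seeing the data, the median SE of the 41 differences was 0.37 and not 0.29, and 0 of the 41 genes were called by limma (1 of 10931 genes, 0.00915%), with 32 of the 41 at an unadjusted p below 0.05, as were 12.3% of all genes, and a smallest adjusted p of 0.28. The 9 calls, and the SE and adjusted p given with them below, therefore hold only for the fit over both states. The called genes were Top2a (difference -1.73), Spc25 (-1.54), Anln (-1.31), Ndc80 (-1.24), Nuf2 (-1.23), Kif11 (-1.18), Kif2c (-1.15), Kif23 (-1.12) and Smc2 (-1.08), and Ttk and Kif4 passed the adjusted p but not the minimum of 1. Among them Ndc80, Nuf2 and Spc25 belong to the 4-protein Ndc80 complex, whose Spc24 had a difference of -0.48.

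Top2a was at 20.8 FPKM in GFP-H3.1, 11.2 FPKM in GFP-H3t and 4.42 FPKM in GFP-H3.2, and in the 6 H3.3-type lines at 0.642 to 5.25 FPKM with a median of 2.22 (SE of the difference 0.40, adjusted p = 0.0326 by limma). Spc25 was at 12.4, 7.02 and 2.84 FPKM in GFP-H3.1, GFP-H3t and GFP-H3.2, and at 0.586 to 3.76 FPKM, median 1.27, in the H3.3-type lines (SE 0.34, adjusted p = 0.0295 by limma). In both genes GFP-H3.1 and GFP-H3t were above all H3.3-type lines, and GFP-H3.2 lay within their range. Smc2 was at 6.46, 6.36 and 2.67 FPKM in GFP-H3.1, GFP-H3t and GFP-H3.2, and at 1.12 to 2.99 FPKM, median 1.71, in the H3.3-type lines (SE 0.25, adjusted p = 0.0341 by limma). Anln was at 12.3, 6.52 and 3.66 FPKM in the same 3 lines, and at 0.895 to 4.49 FPKM, median 2.19, in the H3.3-type lines (SE 0.31, adjusted p = 0.0352 by limma). The pattern of the lines was again the same.

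The kinetochore genes and kinesins followed it at lower levels. Ndc80 was at 5.87, 2.39 and 1.54 FPKM in GFP-H3.1, GFP-H3t and GFP-H3.2, and at 0 to 1.98 FPKM, median 0.630, in the H3.3-type lines (SE 0.31, adjusted p = 0.0438 by limma). Nuf2 was at 7.5, 4.07 and 1.54 FPKM in the 3 lines, and at 0.241 to 2.41 FPKM, median 0.999, in the others (SE 0.32, adjusted p = 0.0499 by limma). Both adjusted p-values are close to the threshold. Kif11 was at 5.40, 3.0 and 1.18 FPKM against 0.144 to 1.88 FPKM, median 0.550 (SE 0.29, adjusted p = 0.0438 by limma). Kif2c was at 5.75, 2.16 and 0.913 FPKM against 0.120 to 1.49 FPKM, median 0.528 (SE 0.29, adjusted p = 0.0491 by limma). Kif23 was at 5.62, 2.19 and 1.08 FPKM against 0.155 to 1.74 FPKM, median 0.575 (SE 0.29, adjusted p = 0.0490 by limma). In all 5 genes the differentiated GFP-H3.2 library lay below the highest H3.3-type library, that of GFP-H3mm7.

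The split did not follow the class of every line. Over the 41 genes GFP-H3.1 was above all 6 H3.3-type lines in 39, GFP-H3t in 27 and GFP-H3.2 in 1, Smc4, the gene whose groups did not overlap (15.5 to 17.5 FPKM against 9.2 to 13.5 FPKM; difference -0.57, not called). GFP-H3.2 was the lowest of the 3 H3.1/H3.2-type lines in 40 genes, and GFP-H3mm7 the highest of the H3.3-type lines in 35. The number of genes called over both states moved with single lines. It was 0 without GFP-H3.1 and also without GFP-H3t, GFP-H3.3, GFP-H3mm11, GFP-H3mm13 or GFP-H3mm16, 29 without GFP-H3.2, 23 without GFP-H3mm7 and 12 without GFP-H3mm12. All 41 differences stayed below 0 in each of these fits, and the median was -0.62 without GFP-H3.1 and -1.39 without GFP-H3.2. The 41 signs are not independent, since the genes went along with each other over the differentiated libraries (median r 0.94). The fits also share most of their libraries. The share of all genes below 0 was not set beside this count.

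Whether the fall itself differed between the classes was asked with the interaction. No gene was called, 0 of 41 and 0% of all genes tested by limma, at an unadjusted p below 0.05 in 23 of the 41 and in 9.14% of all genes (999). The change in the H3.3-type lines minus that in the H3.1/H3.2-type lines was below 0 in 41 of 41 genes, a larger mean fall in the H3.3-type lines. Its median was -0.99, and the smallest adjusted p was 0.455 by limma. The difference furthest from 0, -3.45 for Racgap1, includes the 0 in growing GFP-H3.1 cells. All 41 differences were below 0 in 14 of 19 alternatives. Without GFP-H3.1, 39 were below 0, the median was -0.51, and 1 gene had an unadjusted p below 0.05 by limma.

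**Figure D5:**
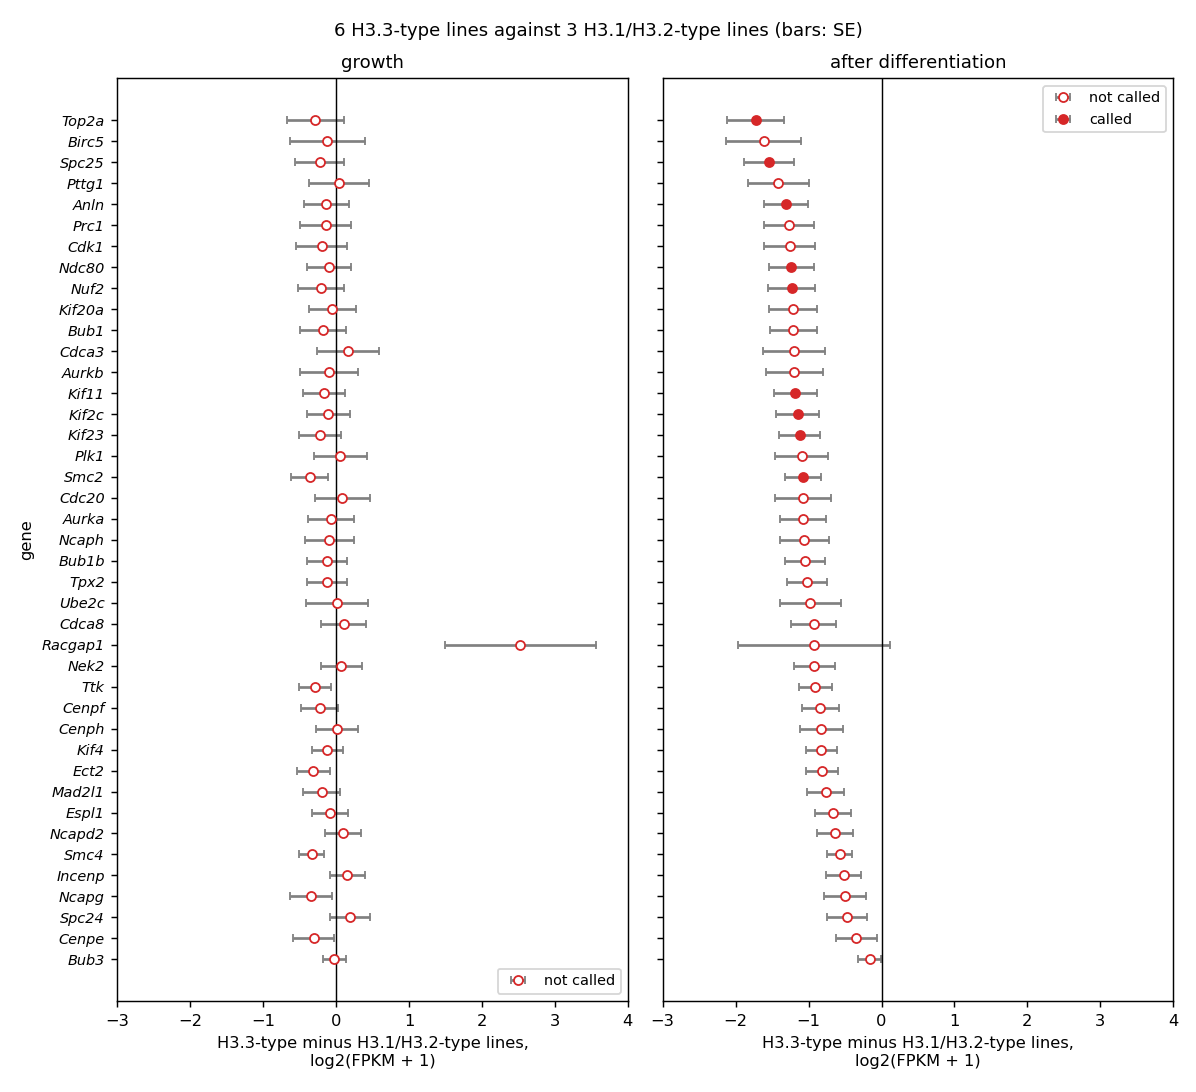
Difference between 6 H3.3-type and 3 H3.1/H3.2-type lines for each of the 41 genes in growth (left) and after differentiation (right), on the log2(FPKM + 1) scale (points, limma estimate; bars, SE of the fit over both states; filled where called in it). In growth the points lie around 0 except for Racgap1 at 2.52, and after differentiation all 41 lie below 0, from -1.73 for Top2a to -0.16 for Bub3, with 9 called in that fit and 0 with the differentiated libraries fitted alone.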

How the data were processed

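The authors made mRNA-Seq libraries from oligo(dT)-primed RNA of C2C12 cells in 2 states, mapped the reads to mm9 with TopHat2 2.0.8 and deposited FPKM values estimated by Cuffdiff of Cufflinks 2.0.1, per the labels and the methods. Counts and depths were not given, so no counting interval was computed, and values at exactly 0 can be failed estimates. Genes that share sequence or overlap may exchange reads. In the mRNA-Seq table the columns named H3mmT were taken as the H3t line, since every other line has columns under its own name, and 0 columns were left unassigned. The 3′-seq tables list histone genes only and were not used. Samples of ChIP-seq and of its input DNA were not analysed here.

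FPKM were used as deposited, without further normalization. Genes that averaged 1 FPKM or more were tested on log2(FPKM + 1) with limma 3.58.1 in R 4.3.3, with its trend and robust options. A call needed a change of 1 or more and a p below 0.05 after Benjamini-Hochberg adjustment. The states were contrasted over 20 libraries, and the 6 lines of H3.3 type with the 3 lines of H3.1/H3.2 type over 18 libraries, within each state and for the difference between their changes. The fit was tested on simulated data. The 41 genes, the 8 roles and the other lists were chosen with earlier results of these data known, so no list was given a p. All 41 genes may be named, with values in full for the genes of largest and smallest difference in each role, genes called between line types and genes with a library far from the others. Other genes are named as the called genes of largest and smallest difference of a list. Ncaph2, Rad21, Smc1a, Smc3, Mau2, Rbl2, Foxm1, Ube2s, Sgol1, Sgol2, Esco2, Cdc23 and Ncapd3 were named after their values were seen. Growth and differentiated libraries of a line come from the same line, and the deviations of the 2 libraries from their state means correlated best within their own line in 10 of 10 lines (r of 0.27 to 0.88). Alternatives covered the pseudocount, the filter, normalization, the limma settings, the line as a block, and leaving out each line. Setting doubtful zeros to missing (80 values in 38 genes whose state median was at least 20 FPKM) and fitting the line classes in each state alone were added after seeing the data.

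Promoter windows and start sites are from RefSeq (GRCm38.p6, the first window listed for each of 27025 gene symbols), their mm9 positions from an exact match to the NCBIM37 sequence, and gene loci from GENCODE vM1. Values were computed with Python 3.11.15 and pandas 2.3.3 and plotted with matplotlib 3.10.9.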

Additional observations from a re-analysis of the deposited data

Results flagged for a closer look

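Of 82 groups tested, each a gene in the 10 libraries of 1 state, 7 had a library whose gap to the nearest other library was a larger share of the range than Dixon's 95% value for 10 samples, with gap and range on the log2(FPKM + 1) scale. About 1 group in 20 passes this value by chance. All 7 were in growth. In WT, Ube2c was low at 121 FPKM, next to 259 FPKM (ratio of gap to range on the log2 scale 0.801), and Birc5 was low at 140 FPKM, next to 190 FPKM (0.508). WT was high in Nek2, at 56.9 FPKM next to 42.4 FPKM (0.552), and in Bub1b, at 54.2 FPKM next to 39.4 FPKM (0.524). GFP-H3t was high in Kif11, at 43.9 FPKM next to 33.2 FPKM (0.514), and in Cenpe, at 31.1 FPKM next to 22.3 FPKM (0.473). Racgap1 was listed at 0 in GFP-H3.1, next to 134 FPKM (0.932). No library stood out in this way after differentiation, where the spread between lines was larger.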

How the results depend on the processing

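All 41 genes were called lower in differentiated cells in the fit as reported. With the line as a replicate block, which pairs the growth and differentiated library of each line, 41 were called lower as well, and 0 genes were called for the difference between the changes of the line classes. The contrasts of line classes within a state were not run with the block. Over 861 single values of the 41 genes under alternatives, 0 changed direction and 4 dropped under the minimum, all of Bub3: -0.95 with a pseudocount of 5 FPKM and -0.99, -1.0 and -0.99 without GFP-H3mm12, GFP-H3mm13 and GFP-H3mm16. The median difference of the 41 genes was -2.56 with a pseudocount of 5 FPKM, -4.36 with a pseudocount of 0.1 FPKM, and -3.83 to -3.56 when each line was left out. Of all genes, 576 were called lower and 517 higher with a pseudocount of 5 FPKM, and 3083 lower and 3336 higher with no minimum change. Between line classes after differentiation, 1 gene of the 41 was called with a pseudocount of 5 FPKM and 0 without a filter on low values. With each state fitted alone 0 were called, and 12 with a pseudocount of 0.1 FPKM or median ratio normalization. When each line was left out, 0 to 29 were called. All 41 differences were below 0 in each of 19 alternatives, which share most of their libraries. With zeros of doubtful genes set to missing, 9 were called. In growth and for the interaction, 0 were called under every alternative run. Depth is unknown, and levels below 1 FPKM after differentiation are compressed by the pseudocount.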
